A study of Homo sapiens with 6 samples.

Results

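The clustered histone genes, named HIST in older human nomenclature, encode the core histones H2A, H2B, H3 and H4 and the linker histone H1, and they sit in 4 groups on 3 chromosomes. They were selected by symbol, as HIST followed by a cluster number and the letter H, and were sorted by histone class and by cluster. The selection gave 71 genes of the 23827 listed. Cluster 1 on chromosome 6 held 55 of them, cluster 2 on chromosome 1 held 12, cluster 3 on chromosome 1 held 3, and cluster 4 on chromosome 12 held 1. By class there were 6 genes for H1, 17 for H2A, 18 for H2B, 15 for H3 and 15 for H4.

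The libraries came from A549 cells, a line derived from a human lung adenocarcinoma, in a study titled for a lactic acid and CHAC1 axis in ferroptosis. Cells were kept for 24 h with 20 mM lactic acid added to the medium (LAC) or, as controls, with an equivalent addition of phosphate-buffered saline (PBS), and neither group carried another agent or a genetic change according to the labels. Each group had 3 libraries that the labels call biological replicates. RNA carrying a poly(A) tail was captured on oligo(dT) beads and read as paired ends of 150 bases.

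Histones package DNA into nucleosomes, and the clustered genes supply most of the histone protein that dividing cells need while DNA is copied. Their messages are unusual in that most end in a short stem-loop in place of a poly(A) tail. The stem-loop binding protein SLBP and the U7 small nuclear ribonucleoprotein direct that end. A second form of some of these messages runs past the stem-loop and is polyadenylated, which is well known for cells that have left the cell cycle or are differentiating. Oligo(dT) capture selects the polyadenylated form, and the level of messages ending at the stem-loop was not analysed here.

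The stem-loop is shown first because a message that ends at it carries no poly(A) tail for oligo(dT) to bind. It was searched for on the sense strand after the stop codon of GENCODE release 29 transcripts (GRCh38), as GG, any 2 bases, CTTTT, any base, AG, any 2 bases and CC, with all 6 bases of one arm paired to the other across a loop of 4. At least 1 transcript of 30 of the 71 genes held it. For a background, transcripts were searched over their whole length and counted singly. Of all 206694 GENCODE transcripts 0.0266% held it, and among the 206594 transcripts of other genes the share was 0.00581%. These shares are therefore not of the same kind as the count by gene after the stop codon. The sequences below run 5′ to 3′ in the direction of the message, as DNA, with the stem-loop of 16 bases in capitals.
HIST1H2AC: caaaGGCTCTTTTCAGAGCCcccctaccgt
HIST2H2AA3: aaaaGGCTCTTTTCAGAGCCacccacgttt
HIST3H2A: taaaGGCTCTTTTCAGAGCCacctactatc
HIST1H2BD: caaaGGCTCTTTTAAGAGCCacgcatgttt
HIST2H2BE: caaaGGCTCTTTTCAGAGCCacccacctaa
HIST1H3H: caaaGGCTCTTTTCAGAGCCacccacatgc
HIST1H4I: aaaaGGCCCTTTTTAGGGCCcctaagcttt
HIST1H4H: caaaGGCCCTTTTCAGGGCCgcccactttt

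These 8 were picked for display from members that rose in LAC, and their models differ in how far they run beyond the loop. Of all 30 members with a match, 23 were tested, 13 rose by the test given below and 10 did not pass, against 18.7% of all genes tested that rose. Among all tested members, with or without a match, 18 of 33 rose. HIST1H1C, HIST1H2AG, HIST1H2BJ, HIST1H2BK and HIST1H3E rose without a match. The modelled transcript went on for 1128 bases after the loop in HIST1H2AC, 1729 in HIST2H2BE, 1655 in HIST1H4H and 769 in HIST1H3H. It went on for 390 bases in HIST3H2A and 212 in HIST1H4I, but for only 39 in HIST1H2BD and 35 in HIST2H2AA3. For HIST1H2BK and HIST1H1C the model stops at the stop codon, so no loop could be sought there. The search is for letters alone, and a gene without a match may still make a stem-loop.

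The promoters of the gene with the most counts in each class are shown because the classes differ in the elements before their starts. Each run holds 250 bases before and 50 after the RefSeq start (GRCh38.p14), in the direction of the gene. Capitals mark TATAAA (the letters of a TATA box), CCAAT and ATTTGCAT (the octamer bound by OCT1). They also mark GGTCCG (the core of an H4 element) and AAACACA (the H1 box). Each was taken on either strand and at any place in the window.
HIST1H1C, chr6:26056421-26056720, minus strand: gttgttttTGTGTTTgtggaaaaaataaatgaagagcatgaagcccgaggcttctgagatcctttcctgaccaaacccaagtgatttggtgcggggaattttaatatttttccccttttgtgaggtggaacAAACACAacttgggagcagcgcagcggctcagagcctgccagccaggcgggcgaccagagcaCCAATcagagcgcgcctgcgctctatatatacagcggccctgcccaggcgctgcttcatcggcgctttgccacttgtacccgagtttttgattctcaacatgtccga
HIST1H2AC, chr6:26123922-26124221, plus strand: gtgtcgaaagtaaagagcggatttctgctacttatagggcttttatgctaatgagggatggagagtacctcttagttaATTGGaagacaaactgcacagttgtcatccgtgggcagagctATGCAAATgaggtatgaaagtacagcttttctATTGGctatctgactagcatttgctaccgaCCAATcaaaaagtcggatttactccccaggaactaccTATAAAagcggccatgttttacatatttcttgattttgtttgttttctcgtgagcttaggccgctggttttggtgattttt
HIST1H2BK, chr6:27146809-27147108, minus strand: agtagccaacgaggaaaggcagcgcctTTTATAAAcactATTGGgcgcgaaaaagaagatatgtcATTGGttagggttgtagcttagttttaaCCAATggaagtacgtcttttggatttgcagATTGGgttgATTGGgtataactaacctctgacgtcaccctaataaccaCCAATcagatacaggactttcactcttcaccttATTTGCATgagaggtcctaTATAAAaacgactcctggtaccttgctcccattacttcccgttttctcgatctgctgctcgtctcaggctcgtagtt
HIST1H3E, chr6:26223928-26224227, plus strand: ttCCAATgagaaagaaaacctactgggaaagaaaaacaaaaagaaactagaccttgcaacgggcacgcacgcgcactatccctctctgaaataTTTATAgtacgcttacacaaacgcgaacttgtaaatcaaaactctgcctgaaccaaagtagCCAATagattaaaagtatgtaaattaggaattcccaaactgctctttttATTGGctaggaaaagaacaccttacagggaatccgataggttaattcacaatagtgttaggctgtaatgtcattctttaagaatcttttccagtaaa
HIST1H4I, chr6:27139032-27139331, plus strand: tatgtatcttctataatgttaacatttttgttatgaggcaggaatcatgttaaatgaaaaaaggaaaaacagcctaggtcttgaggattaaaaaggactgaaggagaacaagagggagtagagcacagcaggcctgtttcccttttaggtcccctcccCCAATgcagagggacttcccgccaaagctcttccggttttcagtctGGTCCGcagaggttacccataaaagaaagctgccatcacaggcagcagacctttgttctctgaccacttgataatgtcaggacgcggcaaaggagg

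RefSeq gave such a window for 61 of the 71 genes. The octamer stood in 11 of 14 H2A windows and 14 of 18 H2B windows, against 1.8% of all 27305 promoters of the same length, and in 0 of 6 H1 windows and 0 of 13 H4 windows. It stood in 1 of 10 H3 windows, but that window, listed for HIST1H3D, is the same stretch as that of HIST1H2AD. GGTCCG stood in 12 of 13 H4 windows, in 1 window each of H2A, H2B and H3, and in 11.2% of all promoters. AAACACA stood in all 6 H1 windows, 2 of 10 H3 windows, 1 of 14 H2A windows, no H2B or H4 window and 5.76% of all promoters. CCAAT stood in every window of H1, H2A, H2B and H3 but in only 3 of 13 of H4, with 35.7% over all promoters, and TATAAA in 40 of 61, with 12.0% over all promoters. Many H2A and H2B genes lie head to head, so their windows overlap and are not independent. A TATAAA match at any place or on the other strand was counted, so it need not be the gene's own TATA box. In the HIST1H3E window it lies on the other strand. A match describes the sequence and no factor binding was measured.

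Clustered histone genes had low counts in these libraries. Totals ran from 33492831 to 42938870 counts in genes, and the 71 genes together had 5556, 5041 and 5920 counts in PBS libraries 1, 2 and 3 and 9808, 11053 and 9445 in LAC libraries 1, 2 and 3. All 3 LAC sums lay above all 3 PBS sums. In CPM (counts scaled to a library of 1000000 after TMM correction), the sum was 154 ± 8.27 (SD, n = 3) in PBS and 262 ± 11.9 in LAC, a ratio of 1.70. The 11 listed genes for variant histones carry no HIST name and are polyadenylated as a rule. They summed to 1828 ± 13.8 CPM in PBS and 1733 ± 41.9 in LAC, a ratio of 0.948.

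Of the 71 genes, 8 had no count in any library, 30 were counted with a mean under 10 per library, and 33 had a mean of at least 10. Those 33 were also the ones that passed the filter on low counts, and 16 of them had a mean of at least 100. With edgeR's quasi-likelihood F test at an adjusted p under 0.05, 18 of the 33 rose in LAC and none fell, while the other 15 did not pass. Over all 15474 genes tested, 18.7% rose and 16.7% fell. Without the filter, 17 of the 63 counted members rose and 0 fell, against 13.4% and 12.8% of all genes. DESeq2 gave 16 of 63 members that rose and 0 that fell, against 12.1% and 11.2% of all genes to which it gave a p-value. Any gene that it left without an adjusted p is included there as not called. Over the 18 alternative settings 14 to 20 members rose and 0 fell, while the share of all genes that rose ran from 7.88% to 21.2%. The number of members tested varied from 22 to 63. On the deposited FPKM with a filter 18 of 22 rose, against 14.8% of all genes. With at least 50 counts in 3 libraries 20 of 23 rose, against 21.2%. HIST2H3A and HIST2H3C reached those 50 counts in LAC libraries alone, and HIST1H2AI in no PBS library but library 2. HIST2H3C and HIST1H2AI are among the 20, so that count leans on members let in by their LAC values. On FPKM without a filter 15 of 63 rose, against 7.88%.

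The log2 change of the 33 members had a median of 0.62, against 0.0024 over all genes tested, and was above 0 for 30 of them. The 3 below 0 were HIST1H2BO (-0.58), HIST2H3D (-0.50) and HIST2H2AC (-0.08), which had few counts and did not pass the test. The CPM of the 2 groups did not overlap for 23 members with LAC higher, among them all 18 that rose, and for 0 with LAC lower. Over all genes tested, 24.4% had groups apart with LAC higher and 23.1% with LAC lower. The filter was reached in all 6 libraries by 28 members, including the 18 that rose. It was reached in the 3 LAC libraries but in fewer PBS libraries by HIST2H2AC, HIST1H2AM and HIST1H2BH, none of which passed the test. The p-values set the difference between the groups against the spread between these libraries. In bulk RNA a change in the share of cells making a message and a change in the message per cell cannot be told apart.

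**Figure D1:**
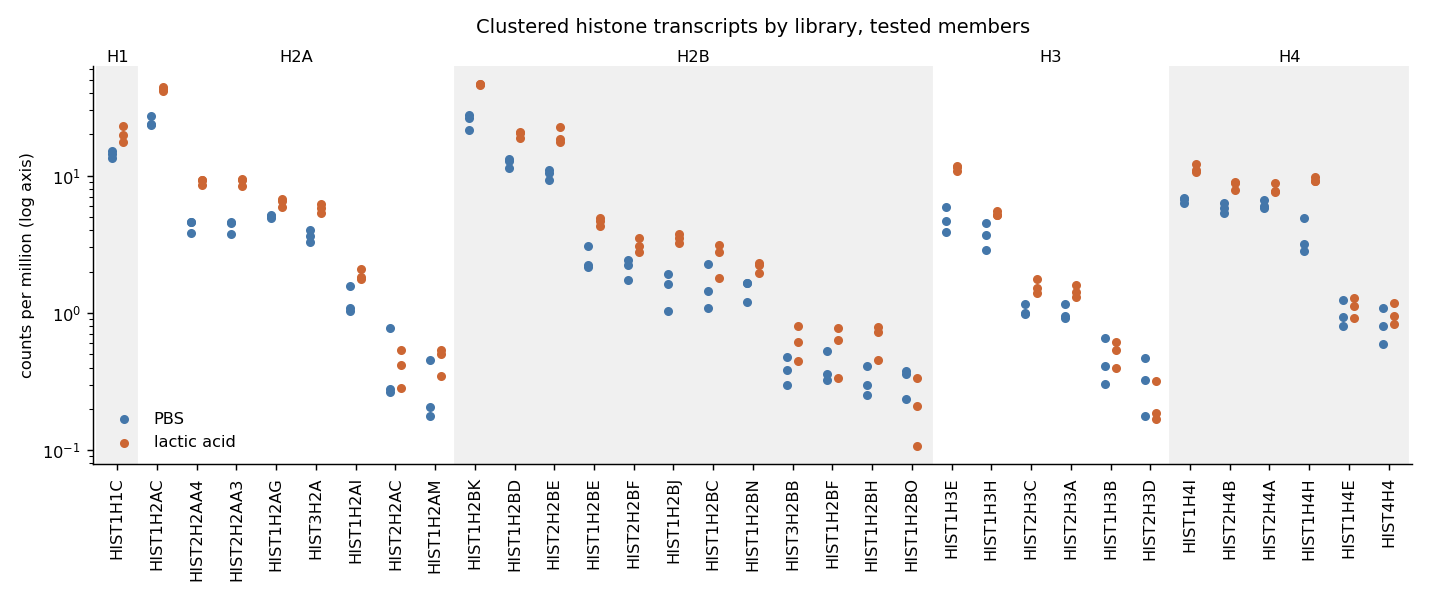
CPM (log axis) of the members with a mean of at least 10 counts per library, by histone class, with 1 point for each of the 3 PBS and 3 LAC libraries. HIST1H2BK and HIST1H2AC sit at the top, and the groups stay apart in all 18 members that rose.

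Fold changes of the 18 ran from 1.27 to 2.58 with a median of 1.72. A rise of at least 2-fold was reached by 5 of them, namely HIST1H4H, HIST1H3E, HIST1H2BJ and the pair HIST2H2AA3 and HIST2H2AA4. Among all genes tested, 1.22% rose that much. The call held in every fit without 1 library for 14 of the 18. The other 4, HIST1H2AG, HIST2H2BF, HIST1H3H and HIST2H4A, are given below with the fits that lost them.

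H1 histones bind the DNA between nucleosomes, and 1 of the 6 genes carried nearly all counts of the class. HIST1H1C (H1-2, chr6:26055787-26056428, minus strand) had 517, 451 and 576 counts in PBS and 816, 748 and 740 in LAC. All LAC values were above all PBS values. It rose 1.39-fold, from 14.4 ± 0.929 to 20.1 ± 2.68 CPM (log2 change 0.48, SE 0.10, edgeR adjusted p = 0.00269). HIST1H1C held 98.3% of the H1 counts in PBS and 98.1% in LAC. Of the rest, HIST1H1A had no count, and HIST1H1B, HIST1H1D, HIST1H1E and the testis gene HIST1H1T had means from 0.667 to 4.83 counts.

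H2A pairs with H2B in the nucleosome, and 8 of its 17 genes were tested, of which 5 rose. HIST1H2AC (chr6:26124145-26139116, plus strand) had the most counts, with 926, 808 and 922 in PBS and 1536, 1887 and 1562 in LAC. Its lowest LAC count was well above its highest PBS count, and it rose 1.74-fold, from 24.8 ± 2.16 to 43.1 ± 1.35 CPM (log2 change 0.79, SE 0.06, edgeR adjusted p = 1.85e-06). It held 55.9% of H2A counts in PBS and 56.3% in LAC. HIST3H2A (chr1:228456979-228457873, minus strand), in the smallest chromosome 1 cluster, had 112, 123 and 159 counts in PBS and 222, 246 and 202 in LAC. The groups were apart, and the fold was 1.58 (log2 change 0.66, SE 0.13, adjusted p = 0.00199).

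HIST2H2AA3 and HIST2H2AA4 are neighbours on chromosome 1 with the same coding sequence, and the authors' counting could split reads between them. HIST2H2AA3 (chr1:149842188-149842736, minus strand) had 154, 126 and 184 counts in PBS and 329, 402 and 318 in LAC, and HIST2H2AA4 (chr1:149851061-149851624, plus strand) had 156, 128 and 183 and then 330, 398 and 322. The copies thus had nearly equal counts in every library, with LAC above PBS throughout. They rose 2.10-fold (log2 change 1.07, SE 0.12, edgeR adjusted p = 3.1e-05) and 2.09-fold (1.06, SE 0.11, adjusted p = 2.7e-05).

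HIST1H2AG had 166, 171 and 205 counts in PBS and 233, 253 and 254 in LAC, with no overlap. Its rise of 1.27-fold was the smallest of the 18 (log2 change 0.35, SE 0.11, edgeR adjusted p = 0.0305). The call was lost under DESeq2, without the filter, on log2(FPKM + 1) without a filter and in 5 of the 6 fits without 1 library (each but that without LAC library 2), with adjusted p from 0.052 to 0.108. HIST1H2AI, with 37, 53 and 41 counts against 75, 75 and 68, had groups apart in CPM but an adjusted p of 0.056. It passed in 5 alternatives (limma-voom, at least 50 counts, without PBS library 2 and both filtered FPKM fits), with adjusted p from 0.022 to 0.0499. HIST1H2AM (adjusted p = 0.259) and HIST2H2AC (0.919) had means of 14.2 and 15.5 counts. Of the 9 that were not tested, HIST1H2AA and HIST1H2AK had no count.

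H2B had the largest class sum, and 6 of its 12 tested genes rose. HIST1H2BK (chr6:27146418-27146798, minus strand) had the highest mean count over the 6 libraries, with 945, 892 and 857 in PBS and 1666, 1975 and 1729 in LAC. HIST1H2AC had more in PBS library 3, and the PBS levels of the pair lay within their spread. The LAC libraries were close to one another and far above PBS, and the rise was 1.84-fold, from 25.3 ± 3.29 to 46.5 ± 0.330 CPM (log2 change 0.88, SE 0.08, edgeR adjusted p = 4.5e-06). Per length, in the deposited FPKM, HIST1H2BK was also the highest member, at 63.0 ± 7.66 in PBS and 113 ± 0.782 in LAC. The next levels in PBS were HIST1H1C at 21.2 ± 1.23, HIST1H2BD at 16.2 ± 0.868 and HIST1H2AC at 14.7 ± 1.24 FPKM, of which the last 2 lay within the spread of each other.

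HIST1H2BD had 433, 382 and 522 counts in PBS and 740, 872 and 701 in LAC, and HIST2H2BE had 318, 350 and 434 in PBS and 801, 790 and 656 in LAC. Neither gene's groups overlapped. HIST1H2BD rose 1.61-fold (log2 change 0.69, SE 0.08, edgeR adjusted p = 6.3e-05) and HIST2H2BE 1.90-fold (0.93, SE 0.10, adjusted p = 4.0e-05). HIST1H2BE had 76, 73 and 122 counts in PBS and 175, 199 and 162 in LAC, and HIST1H2BJ had 65, 35 and 65 in PBS and 126, 159 and 121 in LAC. Both had every LAC library above every PBS library. Their folds were 1.85 (log2 change 0.89, SE 0.17, adjusted p = 0.00144) and 2.28 (1.19, SE 0.22, adjusted p = 0.00122).

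HIST2H2BF, whose annotated span shares 9830 bases with FCGR1A (mean 9.5 counts) on the other strand, had 83, 59 and 89 counts in PBS and 125, 119 and 115 in LAC. Its groups were apart, with a fold of 1.45 (log2 change 0.54, SE 0.18, edgeR adjusted p = 0.0389). This call was lost under DESeq2, in the 3 fits on FPKM, and without PBS library 2, PBS library 3, LAC library 1 or LAC library 3, with adjusted p from 0.0683 to 0.139. HIST1H2BH, with 14, 10 and 10 counts against 28, 31 and 17 (adjusted p = 0.0552), and HIST1H2BN, with 56, 56 and 48 against 83, 83 and 84 (0.0677), were apart in CPM but did not pass. HIST1H2BN overlaps HIST1H2AK and HIST1H2AL, which had means of 0 and 1.67 counts. HIST1H2BC (adjusted p = 0.0839), HIST3H2BB (0.187), HIST1H2BF (0.341) and HIST1H2BO (0.416) did not pass either. HIST1H2BC passed with a replicate block (adjusted p = 0.0336), without PBS library 2 (0.0199) and without LAC library 3 (0.0386), and HIST1H2BH without LAC library 3 (0.045) and without unnamed loci (0.0489). HIST1H2BA, a testis gene, had no count.

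H3 carries many of the lysines that are acetylated or methylated in chromatin, and 2 of its 6 tested genes rose. HIST1H3E (chr6:26224199-26227473, plus strand) had 200, 132 and 185 counts in PBS and 417, 495 and 406 in LAC. Each LAC count was more than any PBS count by a wide margin, and the rise was 2.36-fold, from 4.83 ± 0.998 to 11.4 ± 0.488 CPM (log2 change 1.24, SE 0.13, edgeR adjusted p = 3.0e-05). Its share of all H3 counts was 40.9 ± 4.41% in PBS and 54.2 ± 1.11% in LAC (SD, n = 3), whereas the shares of the leading H1, H2A, H2B and H4 genes were within 2 percentage points in the 2 groups. HIST1H3H had 153, 125 and 115 counts in PBS and 185, 237 and 194 in LAC, with groups apart and a fold of 1.44 (log2 change 0.52, SE 0.16, adjusted p = 0.0249). That call was lost on log2(FPKM + 1) without a filter and in each fit without 1 library except that without PBS library 1, with adjusted p from 0.0535 to 0.0841.

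HIST2H3A and HIST2H3C are a further pair with 1 coding sequence, and each overlaps a HIST2H4 gene on the other strand by 230 bases. Reads from such partners cannot be told apart unless strand was used. HIST2H3C had 34, 33 and 46 counts against 63, 59 and 57 (edgeR adjusted p = 0.0723) and HIST2H3A 32, 31 and 46 against 57, 56 and 53 (0.111). Neither passed, though HIST2H3C did with at least 50 counts (0.0497) and on log2(FPKM + 1) without a filter (0.0489). HIST1H3B (adjusted p = 0.743) and HIST2H3D (0.487) had means under 20 counts, and of the 9 untested H3 genes HIST1H3I and HIST2H3PS2 had no count.

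H4 is among the most conserved of all proteins, and 4 of its 6 tested genes rose. HIST1H4I (chr6:27138588-27139881, plus strand) had 233, 227 and 252 counts in PBS and 435, 454 and 415 in LAC. Replicates were tight and the groups far apart, with a fold of 1.70 from 6.65 ± 0.270 to 11.3 ± 0.801 CPM (log2 change 0.77, SE 0.10, edgeR adjusted p = 8.5e-05). HIST1H4H (chr6:26277609-26285638, minus strand) had 166, 108 and 113 counts in PBS and 350, 391 and 345 in LAC. It had the largest fold of all members, 2.58, from 3.65 ± 1.09 to 9.41 ± 0.364 CPM (log2 change 1.37, SE 0.17, adjusted p = 8.9e-05).

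HIST2H4A and HIST2H4B share a coding sequence, so reads could be split between them too. HIST2H4B had 216, 179 and 231 counts in PBS and 322, 379 and 294 in LAC, and HIST2H4A had 203, 223 and 230 and then 317, 326 and 291. LAC was above PBS throughout, with folds of 1.47 (log2 change 0.56, SE 0.11, edgeR adjusted p = 0.00216) and 1.32 (0.40, SE 0.11, adjusted p = 0.0136). The call on HIST2H4A was lost without PBS library 3, without LAC library 1 and on log2(FPKM + 1) without a filter, with adjusted p from 0.0516 to 0.07. HIST1H4E, with 42, 27 and 37 counts against 46, 39 and 42 (adjusted p = 0.690), and HIST4H4, the 1 member on chromosome 12, with 37, 20 and 32 against 34, 50 and 31 (0.563), overlapped between groups.

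**Figure D2:**
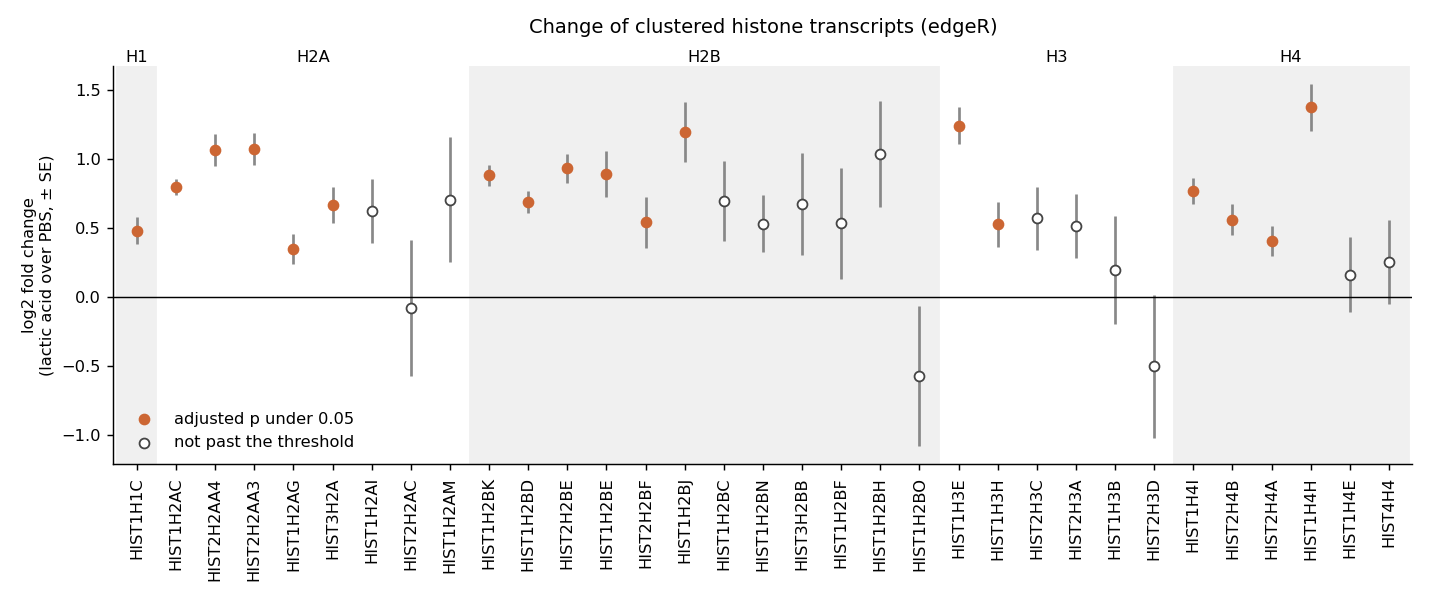
Log2 change of LAC over PBS with its standard error, derived from the F statistic, for each of the 33 tested members, by histone class. The 18 members that passed the test at an adjusted p under 0.05 are filled, and all of these lie above 0.

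Summed by class, every class was higher in all LAC libraries than in all PBS libraries. H1 summed to 14.6 ± 0.901 CPM in PBS and 20.5 ± 2.65 in LAC, a ratio of 1.40. The ratio was 1.72 for H2A (44.4 ± 1.82 to 76.5 ± 2.31 CPM), 1.77 for H2B (58.9 ± 2.35 to 104.3 ± 5.16), 1.79 for H3 (11.8 ± 1.51 to 21.0 ± 0.842) and 1.64 for H4 (24.5 ± 2.17 to 40.1 ± 2.29). The H3 ratio leaned on HIST1H3E and was 1.39 without it. Differences between the class ratios were not tested, and the tested members within H2A, H2B, H3 and H4 spread more widely than the class ratios.

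**Figure D3:**
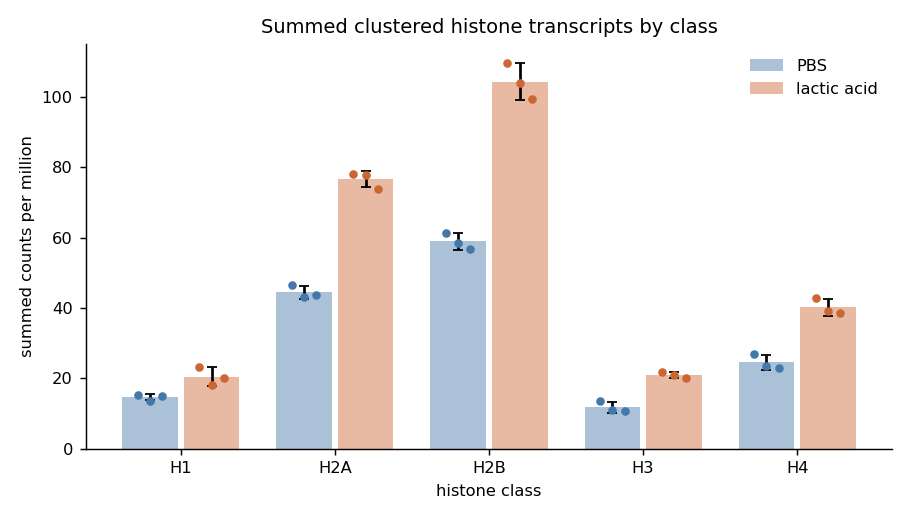
Summed CPM of all members of each histone class in each library, with group means and SD over 3 libraries. The LAC points lie above the PBS points in every class, and H2B and H2A hold most of the signal.

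By position, cluster 1 had a ratio of 1.71 with 11 of 20 tested genes rising and cluster 2 a ratio of 1.71 with 6 of 10. Cluster 3 had 1.58 with 1 of 2 rising and cluster 4 had 1.19 with 0 of 1. The libraries of the 2 groups overlapped in cluster 4 alone. Within a class, clusters 1 and 2 did not always have like ratios. H2A had a ratio of 1.65 in cluster 1 and 2.04 in cluster 2, whereas H3 had 1.91 and 1.36 and H4 had 1.92 and 1.40. These are ratios of sums led by 1 or 2 genes each, and the differences were not tested.

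Genes that lie head to head, and so share the stretch between their starts, were counted unequally in several pairs. Starts here are those of the GENCODE gene models. A model that holds only the coding sequence, as for HIST1H2BK and HIST1H2AH, begins at the start codon. Such starts can differ from the RefSeq starts used for the promoters. HIST1H2BK and HIST1H2AH start 330 bases apart and had means of 1344 and 1.67 counts per library. HIST2H2BE and HIST2H2AC start 322 bases apart with means of 558 and 15.5, and HIST1H2AC and HIST1H2BC start 218 bases apart with means of 1274 and 77.5. In HIST3H2A and HIST3H2BB, 233 bases apart, the means were 177 and 19.0 counts. HIST1H2AG and HIST1H2BJ, with 291 bases between starts, were the pair in which both genes rose, at means of 214 and 95.2 counts. In the other pairs at most 1 partner rose. Means were closer in HIST1H2AM and HIST1H2BO, 313 bases apart, at 14.2 and 10 counts, and HIST1H2AA and HIST1H2BA were both at 0. Counts are not scaled for length, and partner models differ in length. Mean PBS FPKM was 63.0 and 0.140 for HIST1H2BK and HIST1H2AH, and 4.42 and 1.05 for HIST2H2BE and HIST2H2AC. It was 14.7 and 2.28 for HIST1H2AC and HIST1H2BC, and 3.87 and 0.154 for HIST3H2A and HIST3H2BB. HIST1H2AG and HIST1H2BJ had 2.12 and 1.68 FPKM in PBS but 2.63 and 3.56 in LAC.

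The annotated length after the stop codon went with the level. A GENCODE transcript with at least 100 bases after the stop was found for 29 members, and their median of mean counts was 98.3, with 25 at a mean of at least 10. For the 42 members with fewer bases the median was 1.67, with 8 at a mean of at least 10. The limit of 100 bases was chosen after the values were seen, and a longer model also collects more reads. Of 35 members whose models end at the stop codon, 28 had means under 10. Counts divided by FPKM gave lengths within 0.9 to 1.1 times the longest GENCODE transcript for 28 of the 33 tested members.

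Members with the longer models had 16 rises in 25 tested and a summed ratio of 1.73, and those with shorter ones had 2 rises in 8 and a ratio of 1.63. Those 2 were HIST1H2BK and HIST1H1C. Without them, the shorter models summed to 141, 170 and 170 counts in PBS and 221, 224 and 205 in LAC, a ratio of 1.26 with the groups apart in CPM. HIST1H2AI, with 99 bases after the stop and so just under the limit, gave 37, 53 and 41 of these counts in PBS and 75, 75 and 68 in LAC. The 38 members with a mean under 10 together had 56, 43 and 70 counts in PBS and 88, 74 and 81 in LAC, a ratio of 1.36 with overlapping groups. Whether reads of messages ending at the stem-loop were carried through the oligo(dT) step was not tested.

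**Figure D4:**
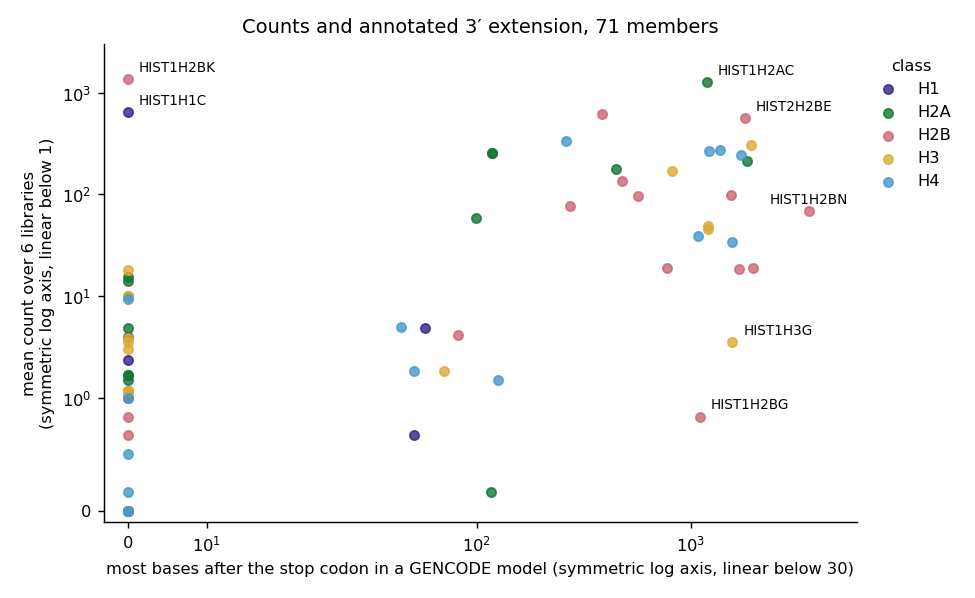
Mean count per library (symmetric log axes) against the most bases after the stop codon in any GENCODE transcript of the gene, with 1 point for each of the 71 members coloured by histone class. Of the 35 members without bases after the stop, 28 have means under 10, while HIST1H2BK and HIST1H1C are near the top.

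The variant histone genes listed here, which carry no HIST name, did not share the rise. Of 11 variant histone genes, all tested, 0 rose, 7 fell and 4 did not pass, with a median log2 change of -0.20. The shares over all genes tested were 18.7% higher and 16.7% lower. CENPA, the centromeric form of H3, had 1051, 1004 and 1188 counts in PBS and 715, 891 and 760 in LAC. Its groups were apart in CPM, and it fell to 0.676 of the PBS level (log2 change -0.57, SE 0.05, edgeR adjusted p = 7.4e-06). Smaller falls were found for H2AFX, the form of H2A phosphorylated at DNA breaks (-0.31), H1FX (-0.28), H1F0, a linker histone of slowly dividing cells (-0.25), H2AFJ (-0.23), H2AFZ, a form of H2A at gene starts (-0.20), and H2AFY2, a macroH2A (-0.18), with adjusted p of 0.00495 or less. The pair encoding the replacement form of H3 did not pass, with H3F3A at 0.10 (adjusted p = 0.199) and H3F3B at -0.04 (0.365), nor did H2AFV at 0.07 (0.286) or H2AFY at -0.04 (0.407).

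Listed factors that transcribe clustered histone genes, process the ends of their messages or act in message decay fell or did not pass the test. Of 22 listed and tested, 0 rose and 14 fell, against 18.7% higher and 16.7% lower over all genes. The median log2 change was -0.15. E2F1, an activator of genes for the start of DNA synthesis, had 1603, 1591 and 2032 counts in PBS and 1282, 1607 and 1400 in LAC, apart in CPM, and fell by 0.39 on the log2 scale (SE 0.04, edgeR adjusted p = 4.4e-05). CDK2, the kinase that with cyclin E activates NPAT, fell by 0.30 (SE 0.04, adjusted p = 5.9e-05). CCNE2, a cyclin E, was at 0.21 (adjusted p = 0.202) and LSM10, a subunit of the U7 particle, at 0.10 (0.497), and neither passed.

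For 4 further factors chosen after their values were seen, SLBP, which binds the stem-loop, had 2263, 2350 and 2636 counts in PBS and 2086, 2632 and 2198 in LAC. In CPM its groups were apart, at 67.7 ± 1.87 and 59.7 ± 1.89, and it fell by 0.18 (SE 0.04, edgeR adjusted p = 0.00326). CASP8AP2 and ZNF473, which work in the same end processing, fell by 0.25 (SE 0.06, adjusted p = 0.00695) and 0.54 (SE 0.07, adjusted p = 7.7e-05). NPAT, the coactivator at the clusters, was at -0.15 and did not pass (adjusted p = 0.126).

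Histone chaperones, which carry histones to and from DNA, were mostly lower. Of 21 tested, 14 fell and 2 rose, against 16.7% lower and 18.7% higher over all genes. The median log2 change was -0.27. ANP32E, which takes H2A.Z out of nucleosomes, fell by 0.39 (SE 0.04, edgeR adjusted p = 7.5e-06), and NASP, which holds H3 with H4, fell by 0.37 from 172 ± 6.38 to 133 ± 3.87 CPM (SE 0.04, adjusted p = 3.0e-05). The 2 that rose were NAP1L1, which carries H2A with H2B (0.14, SE 0.03, adjusted p = 0.00326), and ATRX, a remodeller that deposits the replacement form of H3 (0.15, SE 0.04, adjusted p = 0.00512). Neither was called on the FPKM scale.

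Factors of poly(A) tail addition and removal were called about as often as genes at large. Of 20 tested, 3 rose, 3 fell and 14 did not pass, with a median log2 change of -0.04, against 18.7% higher and 16.7% lower over all genes. The split moved with the scale, to 1 higher and 5 or 6 lower in the FPKM settings and 3 higher and 6 lower with library totals alone. NUDT21, a subunit of cleavage factor I that guides the choice of poly(A) site, fell by 0.22 (SE 0.03, edgeR adjusted p = 4.9e-04), and FIP1L1, a subunit of the cleavage complex, fell by 0.26 (SE 0.05, adjusted p = 0.00144). PABPC1, the main cytoplasmic poly(A)-binding protein, rose by 0.12 (SE 0.02, adjusted p = 0.00284) and TUT7, which adds uridines to RNA ends, by 0.18 (SE 0.04, adjusted p = 0.00684).

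**Figure D5:**
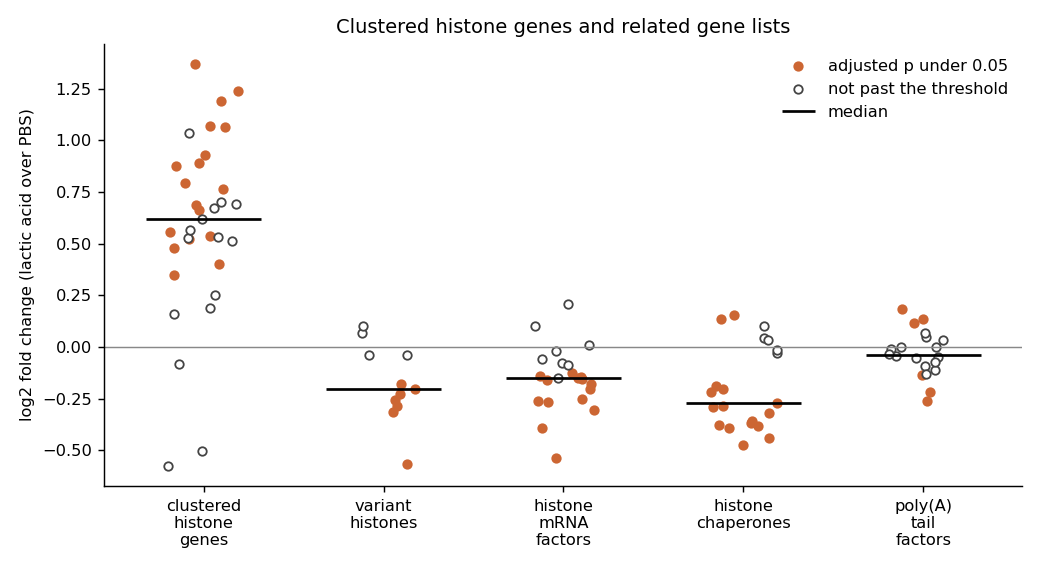
Log2 change of LAC over PBS for each tested gene of the clustered histones and of the 4 related lists, with the median of each as a line. The clustered histone genes lie mostly above 0, the variant histones, histone mRNA factors and chaperones mostly below it, and the poly(A) tail factors around it on this scale.

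The labelled cell type was checked against keratins and markers of other cells. KRT8 and KRT18, keratins of simple epithelia, had means of 1874 and 1054 CPM in PBS and 1814 and 916 CPM in LAC. EPCAM and CDH1 were low, at 3.29 ± 0.501 and 20.1 ± 2.01 CPM in PBS, and both fell in LAC, to 1.62 ± 0.434 and 11.8 ± 0.381. KRT19, a further keratin, rose 1.14-fold from 62.5 ± 1.61 CPM (log2 change 0.18, SE 0.04, edgeR adjusted p = 0.00515), so that of the 5 epithelial markers 1 rose, 3 fell and KRT8 did not pass. PTPRC and ALB had 2 counts at most in any library, PECAM1 9 at most and CD3E 0, while COL1A1, a collagen gene of fibroblasts, was present at 112 ± 7.60 CPM in PBS and 79.7 ± 4.01 in LAC. The part of these changes in the histone results was not tested.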

How the data were processed

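Poly(A) RNA of 6 A549 libraries was measured. The authors deposited whole-number counts per gene and FPKM for the same libraries; the submitters' processing notes list HISAT2, StringTie, DESeq2 and GRCh38 without versions. How strand and multiply matching reads were treated, and which annotation was used, is not given in the sources used here, so counts of near-identical copies and overlapping genes are uncertain. Table columns were assigned to samples by library name.

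From the deposited counts, edgeR 4.0.16 in R 4.3.3 was run over all genes: TMM scaling, filterByExpr (minimum count 10, minimum total 15), the two-sided quasi-likelihood F test with group as the only term, and Benjamini-Hochberg adjustment over 15474 genes. Calls are at an adjusted p under 0.05. The SE of a log2 change was derived as its absolute value divided by the square root of its F statistic. CPM use TMM-scaled totals, with TMM factors from 0.988 to 1.02. Replicates differed by more than counting noise (chi-square per degree of freedom 6.27 to 9.11). All 71 members matched GENCODE release 29 by identifier. Alternatives used other scaling, filters and tools (limma 3.58.1, DESeq2 1.42.0), the deposited FPKM as log2(FPKM + 1) or log2(FPKM + 0.1), a replicate block, and each library left out. The test was checked on simulated data.

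Members and lists were chosen with earlier results of these data known. Every member with a mean of at least 10 counts is named, with counts per library for those that passed the test and for the highest of each class. In other lists up to 2 genes per direction, those of smallest p above 1 CPM, and every variant histone are named. Of the histone mRNA factors, SLBP, CASP8AP2, ZNF473 and NPAT were named in addition, after their values were seen.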

Additional observations from a re-analysis of the deposited data

How the results depend on the processing

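Of the clustered genes, 14 to 20 rose and 0 fell under every alternative run, with 22 to 63 tested. The call was kept by 14 members in each alternative that tested them. Without 1 library the count was 14 to 17, and with identical copies summed, an alternative chosen after seeing the data, it was 17. With the group mean of each gene subtracted from log CPM, same-numbered libraries correlated at 0.0218, -0.0239 and 0.031. With 3 libraries per group, these values cannot decide whether the replicate numbers pair the libraries. A replicate block gave 19 clustered genes and 1 variant histone higher. Without 1 library, 0 to 1 variant histones and 0 to 1 histone mRNA factors were higher. In the 3 FPKM settings, 0 chaperones and 1 poly(A) tail factor were higher; poly(A) tail factors lower were 6, 6 and 5 there, 6 with library totals alone and 5 with at least 50 counts. Summed ratios without 1 library ran from 1.72 to 1.93 for H3, 1.66 to 1.78 for cluster 1, 1.5 to 1.69 for cluster 3 and 1.04 to 1.41 for cluster 4; without the highest member H3 was 1.39 and cluster 3 1.47. The sign changed only for uncalled genes: HIST1H3B (-0.049 to 0.53 over the fits without 1 library), HIST2H2AC (0.047 in limma-voom, -0.34 to 0.58 without 1 library), LSM10 (-0.012 to 0.16 without 1 library) and H2AFV (-0.043, -0.044 and -0.043 in the FPKM settings). The cause was not tested. Depth limits the precision for every tested member with a mean under 20 counts, whichever the sign of its estimate.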
